A study of Rattus norvegicus with 3 samples.

Results

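Genes of the integrated stress response, the programme that the transcription factor ATF4 runs, were examined in RNA from the acellular fraction of rat spinal cord with and without a contusion. The genes were chosen by name as ATF4, its partner DDIT3 (CHOP), the target genes TRIB3, ASNS, PSAT1, PHGDH, CHAC1, SESN2 and DDIT4, and the translational regulator IMPACT. All 10 of the 10 are listed once each in a table of 12771 entries with 12758 symbols. The animals were female Sprague Dawley rats aged 3 months. Controls (No-SCI) underwent laminectomy at T9 and nothing more, the SCI group also received a contusion there, and cord just rostral to the injury was collected 24 h later. The cord was digested in the cold with a protease, cells were pelleted, and the supernatant was sequenced. By its labels the series holds 2 libraries of No-SCI and 1 of SCI.

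The deposited values are FPKM, fragments scaled by transcript length and by library size, and each entry holds 1 authors' value per group. No value for a single library was used here, so the spread between animals and the number of reads behind each value are not known here and no test, SD or interval could be given. A difference is therefore described by its size. A gene is counted as higher or lower when the SCI value is at least 2-fold above or below the No-SCI value, a log2 ratio of at least 1 in size. Among all entries, 1016 (7.96%) were at least 2-fold higher in SCI and 1539 (12.1%) at least 2-fold lower, and the median log2 ratio of all entries was −0.12. A lower SCI value of any size was seen in 7196 entries (56.3%), the background for each count of lower genes given here. Median centring adds 0.12 to each log2 ratio and makes the split even, with 1219 entries higher and 1225 lower. Scaling to the same upper quartile adds 0.10, and scaling to the same total adds 0.045.

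In the integrated stress response, kinases that sense amino acid shortage, misfolded protein, heme loss or double-stranded RNA phosphorylate the initiation factor eIF2. General translation then slows while the mRNA of ATF4 is translated more, so ATF4 is controlled to a large part after transcription. ATF4 protein binds DNA with other bZIP factors and switches on genes for amino acid synthesis, amino acid import and tRNA charging, and, with DDIT3, genes linked to cell death. Several of its targets damp the response or growth signalling, among them TRIB3, SESN2 and DDIT4. In neurons this pathway responds to axon injury and acts on local translation.

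The mRNAs of ATF4 and DDIT3 were nearly the same in both groups, whereas most of the other genes were lower after SCI. Of the 10 genes, 6 (60%) were at least 2-fold lower in SCI, beside 12.1% of all entries, and 0 were at least 2-fold higher, beside 7.96% of all entries. These 6 were CHAC1, TRIB3, PSAT1, IMPACT, PHGDH and DDIT4. SESN2, ASNS and DDIT3 were lower by less than 2-fold, and ATF4 was the single gene with a higher SCI value. The median log2 ratio of the 10 was −1.27, against −0.12 for all entries, and the median level went from 69.4 to 15.8 FPKM. Without ATF4 and DDIT3 the median of the other 8 was −1.35. The count of 6 was the same under each scaling and pseudocount tried. The 10 genes and the lists below were chosen with earlier results of these data known, so these shares are a description and not a test. IMPACT was already among the genes that the study reported as lower after SCI.

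**Figure D1:**
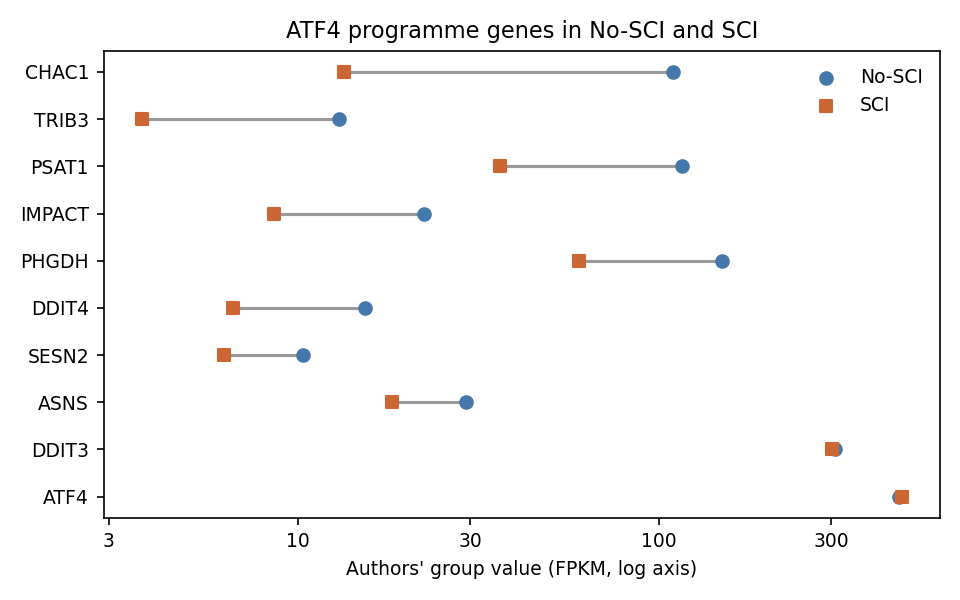
Authors' group values of the 10 genes in FPKM on a log axis, with circles for No-SCI, squares for SCI and a line joining the 2 values of a gene, ordered by log2 ratio. CHAC1 has the longest line, from 109.5 to 13.5 FPKM, while the symbols of DDIT3 and ATF4 lie on each other.

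ATF4 is the leucine zipper factor at the centre of the pathway. Its value was 460.6 FPKM in No-SCI and 470.0 FPKM in SCI, a log2 ratio of 0.029, which is 1.02-fold. ATF4 was the most abundant of the 10 genes in both groups, with percentiles of 96.8 (No-SCI) and 96.7 (SCI) among all entries. DDIT3, a C/EBP family factor that ATF4 induces under endoplasmic reticulum stress, was second, with 306 FPKM in No-SCI and 301 FPKM in SCI. Its log2 ratio of −0.023 changes sign under all 3 scalings, to 0.094 with median centring, 0.080 with the same upper quartile and 0.022 with the same total. Both genes therefore kept their place, with ATF4 1.5 times as abundant as DDIT3 in No-SCI and 1.56 times in SCI. Since phosphorylated eIF2 acts on the translation of the ATF4 mRNA, these levels do not measure ATF4 protein.

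CHAC1, an enzyme that breaks down glutathione and a target of ATF4, had the lowest log2 ratio of the 10. It stood at percentile 85.9 of the table in No-SCI, with 109.5 FPKM, and at percentile 46.4 in SCI, with 13.5 FPKM. The log2 ratio was −3.02, which is 8.13-fold lower, and 22 of the 12771 entries (0.172%) had a ratio this low or lower. CHAC2, a related enzyme that acts on glutathione more slowly, was at 22.1 FPKM in No-SCI and 16.6 FPKM in SCI, a log2 ratio of −0.41. CHAC1 was thus 4.94 times as abundant as CHAC2 in No-SCI and 0.810 times as abundant in SCI.

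TRIB3, a pseudokinase that binds ATF4 and DDIT3 and restrains them, was at 13.0 FPKM in No-SCI and 3.70 FPKM in SCI. The log2 ratio of −1.81, or 3.51-fold lower, is the second lowest of the 10, and TRIB3 is the least abundant of them after SCI, at percentile 16.6. Its SCI value lies near the lowest value of the table, 1, so the ratio moves most with a constant, from −1.57 when 1 is added to both values to −2.15 when 1 is subtracted. Its paralogs did not share the lower value. TRIB1 was higher, with 3.73 FPKM in No-SCI and 8.86 FPKM in SCI (log2 ratio 1.25), and TRIB2 from 28.2 to 28.5 FPKM. Set against its activator at the mRNA level, ATF4 was 35.5 times as abundant as TRIB3 in No-SCI and 127 times in SCI, and for CHAC1 the same ratio went from 4.21 to 34.9.

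ATF4 binds the composite C/EBP-ATF response element, whose core letters TGATGNAA were searched on both strands in the 250 bases before the start of each gene. Of the 10 promoters, 2 held the letters, those of CHAC1 and TRIB3, and 3.40% of 33469 rat promoter windows of this length did. In CHAC1 the match is TGATGCAA, on the strand opposite to the gene, from base 167 to base 160 before the start. In TRIB3 it is TGATGTAA, also on the opposite strand, from base 21 to base 14. A match describes letters only, and other forms of the element and other parts of the genes were not searched. The windows of the 3 genes with the lowest log2 ratios and of ATF4, the gene with the highest, are shown 5′ to 3′ on the strand of the gene, from RefSeq on the GRCr8 assembly, with the match in capitals as it reads on that strand. They lie at chr3:126795881-126796130 on the plus strand (Chac1), chr3:161275534-161275783 on the minus strand (Trib3), chr1:222645409-222645658 on the minus strand (Psat1) and chr7:113684431-113684680 on the plus strand (Atf4).
Chac1: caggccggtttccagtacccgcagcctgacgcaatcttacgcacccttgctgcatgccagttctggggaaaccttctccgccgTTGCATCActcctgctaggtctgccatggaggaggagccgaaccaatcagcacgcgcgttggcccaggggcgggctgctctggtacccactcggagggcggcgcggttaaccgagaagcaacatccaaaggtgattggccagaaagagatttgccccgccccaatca
Trib3: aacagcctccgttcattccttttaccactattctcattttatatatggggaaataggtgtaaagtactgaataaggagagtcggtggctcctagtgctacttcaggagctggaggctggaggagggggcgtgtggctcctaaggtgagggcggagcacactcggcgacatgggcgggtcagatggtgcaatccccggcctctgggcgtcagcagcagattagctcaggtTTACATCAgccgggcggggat
Psat1: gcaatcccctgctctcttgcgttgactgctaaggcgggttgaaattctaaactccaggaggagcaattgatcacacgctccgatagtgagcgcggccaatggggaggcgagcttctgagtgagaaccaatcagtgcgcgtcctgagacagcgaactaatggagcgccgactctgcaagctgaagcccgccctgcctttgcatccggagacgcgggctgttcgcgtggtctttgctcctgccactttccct
Atf4: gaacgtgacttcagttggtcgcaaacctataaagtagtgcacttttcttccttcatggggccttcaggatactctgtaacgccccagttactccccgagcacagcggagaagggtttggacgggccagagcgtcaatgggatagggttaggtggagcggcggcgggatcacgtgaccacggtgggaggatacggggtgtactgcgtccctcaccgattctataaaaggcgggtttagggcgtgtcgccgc

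PHGDH and PSAT1 catalyse the first steps of serine synthesis from a glycolytic intermediate, and both were lower after SCI. PHGDH was at 149.9 FPKM in No-SCI and 60.1 FPKM in SCI, a log2 ratio of −1.32. PSAT1 was at 116 FPKM in No-SCI and 36.2 FPKM in SCI, a log2 ratio of −1.68, the third lowest of the 10. Both were well above the median entry in each group, which was 17.2 FPKM in No-SCI and 15.6 FPKM in SCI. PHGDH was 1.29 times as abundant as PSAT1 in No-SCI and 1.66 times in SCI. PSPH, the phosphatase that completes the pathway, was at 77.2 FPKM in No-SCI and 54.5 FPKM in SCI, a log2 ratio of −0.50, so the ratio of each of the upstream enzymes was lower than that of the last one.

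ASNS, which makes asparagine from aspartate and is the classical amino acid response gene, was at 29.3 FPKM in No-SCI and 18.2 FPKM in SCI. Its log2 ratio of −0.69, 1.61-fold lower, did not reach 2-fold, and 22% of all entries had a ratio as low or lower. A list of 12 other genes of serine, glycine and proline synthesis had 11 listed, of which 10 had lower and 1 higher values in SCI, beside 56.3% of all entries lower. Of the 11, 1 was at least 2-fold lower, a share below the 12.1% of all entries. It was CBS, which joins serine to homocysteine, with 20.0 FPKM in No-SCI and 7.06 FPKM in SCI (log2 ratio −1.50). The most abundant gene of the list was SHMT2, the mitochondrial enzyme that turns serine into glycine, with a log2 ratio of −0.13. These 11 genes had a median log2 ratio of −0.48, or −0.37 after median centring.

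SESN2 and DDIT4 are stress-induced inhibitors of the growth kinase complex TORC1, SESN2 as a leucine sensor and DDIT4 (REDD1) through the TSC complex. DDIT4 was at 15.4 FPKM in No-SCI and 6.61 FPKM in SCI, a log2 ratio of −1.22 or 2.33-fold lower. SESN2 was at 10.4 FPKM in No-SCI, the lowest No-SCI level of the 10, and 6.27 FPKM in SCI, a log2 ratio of −0.73. The paralogs of both had other values. SESN1, a p53 and FOXO target, was at 22.7 FPKM in No-SCI and 24.9 FPKM in SCI, SESN3 had a log2 ratio of −0.44, and DDIT4L was at 32.0 and 57.4 FPKM (log2 ratio 0.84).

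Of 18 genes of the TORC1 pathway itself 17 were listed, 13 with lower and 4 with higher values, and 4 were at least 2-fold lower while 0 were at least 2-fold higher. The count of 4 stands beside 12.1% of all entries. It was 3 with the same total and 2 with the same upper quartile or median centring, the last beside 9.59% of all entries. TSC1, the scaffold of the complex through which DDIT4 acts, was at 20.9 FPKM in No-SCI and 6.27 FPKM in SCI (−1.74 on the log2 scale). Its partner TSC2 (−1.06), the GTPase RRAGB (−1.25) and the GATOR2 subunit WDR24 (−1.02) were the other 3, and TSC1 and RRAGB were the 2 that passed after centring. MTOR was low in both groups, with 2.73 FPKM in No-SCI and 2.27 FPKM in SCI. RHEB, the GTPase that TSC1 and TSC2 switch off, was at 272 FPKM in No-SCI and 303 FPKM in SCI, a log2 ratio of 0.15.

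IMPACT binds GCN1 and thereby keeps the eIF2 kinase GCN2 inactive, and it is abundant in neurons. Its value was 22.4 FPKM in No-SCI, at percentile 56.3, and 8.60 FPKM in SCI, at percentile 35.4. The log2 ratio of −1.38, 2.61-fold lower, ran from −1.27 with median centring to −1.49 when 1 was subtracted from both values. The genes it acts on had values close to each other in the 2 groups. GCN2 (EIF2AK4) was at 25.7 FPKM in No-SCI and 27.2 FPKM in SCI, and GCN1 at 6.16 and 5.47 FPKM. IMPACT lay just below GCN2 in No-SCI and further below it in SCI. Among 150 other genes of the pathway lists the 2 whose No-SCI and SCI levels lay closest to those of IMPACT were CBS and the glycine transporter SLC6A9, at distances of 0.33 and 0.36 on the log2 scale. For ATF4 they were AKT1S1, an inhibitor of TORC1, at 0.69 and DDIT3 at 0.87.

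**Figure D2:**
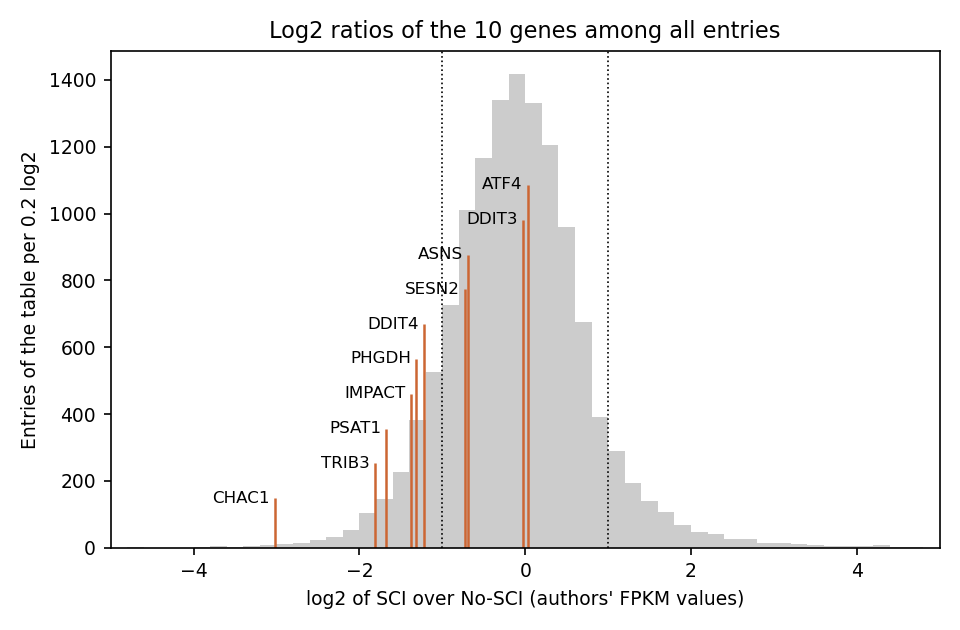
Histogram of the log2 ratio of SCI over No-SCI for the entries of the table between −5 and 5 in steps of 0.2, with an orange line at the ratio of each of the 10 genes (line heights serve the labels only) and dotted lines at 2-fold. CHAC1 stands in the sparse left tail at −3.02, and ATF4 and DDIT3 stand at the centre.

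Upstream of ATF4, the transcripts of the eIF2 kinases and of eIF2 itself had ratios in both directions. Of 8 genes for kinases and their regulators 6 were analysed, with a median log2 ratio of −0.19, and EIF2AK3 (PERK) and NCK1 were not analysed here. The kinase EIF2AK2 (PKR), which senses double-stranded RNA, was at 78.8 FPKM in No-SCI and 31.0 FPKM in SCI (log2 ratio −1.35). It was the 1 gene of the 6 at least 2-fold lower, beside 12.1% of all entries. The heme-regulated kinase EIF2AK1 had a log2 ratio of −0.35. All 13 genes of eIF2, its exchange factor eIF2B and the phosphatase were listed, 9 with higher and 4 with lower values in SCI, and their median log2 ratio was 0.22. Of the 13, 1 was at least 2-fold lower, beside 12.1% of all entries, and 0 were at least 2-fold higher, beside 7.96%. The most abundant were the catalytic phosphatase subunits PPP1CB (−0.72) and PPP1CA (0.36) and the eIF2 subunit EIF2S2 (0.17). The phosphatase subunits that reverse eIF2 phosphorylation differed, since the stress-induced PPP1R15A (GADD34), itself a target of ATF4, was at 45.0 FPKM in No-SCI and 46.4 FPKM in SCI, while the constitutive PPP1R15B was at 12.5 and 5.12 FPKM (log2 ratio −1.29).

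The transcription factors that work beside ATF4 had ratios in both directions. Of 10 genes, 4 were at least 2-fold higher, beside 7.96% of all entries, and 3 at least 2-fold lower, beside 12.1%, or 2 with each scaling. ATF3, a stress-induced factor downstream of ATF4 and a marker of axon injury in neurons, was lower, at 246 FPKM in No-SCI and 48.6 FPKM in SCI (log2 ratio −2.34), as was ATF5, at 118 and 58.7 FPKM (log2 ratio −1.01, and −0.90 after median centring). NFE2L1 was the other lower factor (−1.29). NUPR1, a chromatin protein of the stress response, was higher, with 19.6 FPKM in No-SCI and 373 FPKM in SCI (log2 ratio 4.25). CEBPD (3.13), CEBPB (1.68) and JDP2 (1.27) were also higher, and the C/EBP proteins are partners of ATF4 that inflammatory signals induce as well. CEBPG, the partner of ATF4 at amino acid genes, was at 70.3 FPKM in No-SCI and 52.3 FPKM in SCI.

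In the further lists of ATF4 targets, most genes lay within 2-fold of their No-SCI value. The transcription factors given above, NUPR1 and ATF3 among them, are not part of these lists. All 10 amino acid transporters had a lower SCI value (9 of them after median centring or with the same upper quartile, SLC38A2 being the exception), with a median log2 ratio of −0.56, and 2 of them, 20% beside 12.1% of all entries, were at least 2-fold lower. These were the cationic amino acid transporter SLC7A3, with 10.8 FPKM in No-SCI and 1.62 FPKM in SCI, and SLC6A9 (−1.57). The SCI value of SLC7A3 lies near the lowest value of the table, so its log2 ratio of −2.73 depends on any constant added or subtracted even more than that of TRIB3. SLC38A2, whose log2 ratio of −0.071 turned to 0.046 after median centring, and SLC3A2 (−0.26) were close to even. Of 13 genes of tRNA charging and export 12 had a lower SCI value, with a median of −0.68. AARS1 (−1.09) and CARS (−1.01) passed 2-fold, 2 of 13 beside 12.1% of all entries. With the same total 1 of the 13 passed, and with median centring or the same upper quartile 0 did.

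Of 17 other targets of ATF4 and DDIT3 15 were analysed, 10 with lower and 5 with higher values, a split near the 56.3% of all entries that were lower, and their median log2 ratio was −0.42. VLDLR, a lipoprotein receptor, went from 8.37 to 3.76 FPKM (log2 ratio −1.15), and VEGFA, the vascular growth factor, from 27.4 to 13.2 FPKM (−1.06, and −0.94 after median centring). SQSTM1, the autophagy receptor, was the most abundant gene of that list, with 2895 FPKM in No-SCI and 2161 FPKM in SCI. EIF4EBP1, a brake on cap-dependent translation, was at 119 and 232 FPKM, a log2 ratio of 0.96 that reached 2-fold with each scaling. In the IRE1 and ATF6 arms of the unfolded protein response, which run beside the ATF4 arm, 17 of 18 genes were listed with 8 higher and 9 lower values, also near that background, and a median log2 ratio of −0.19. ERN1, the gene of IRE1 itself, was not analysed here, and these mRNA levels do not measure the activity of either arm. XBP1, the factor that IRE1 activates, was at 22.5 FPKM in No-SCI and 67.3 FPKM in SCI (log2 ratio 1.58). ATF6 (−1.44) and SEL1L (−1.31), a degradation component, were lower, and the chaperone HSPA5 had a log2 ratio of −0.67.

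**Figure D3:**
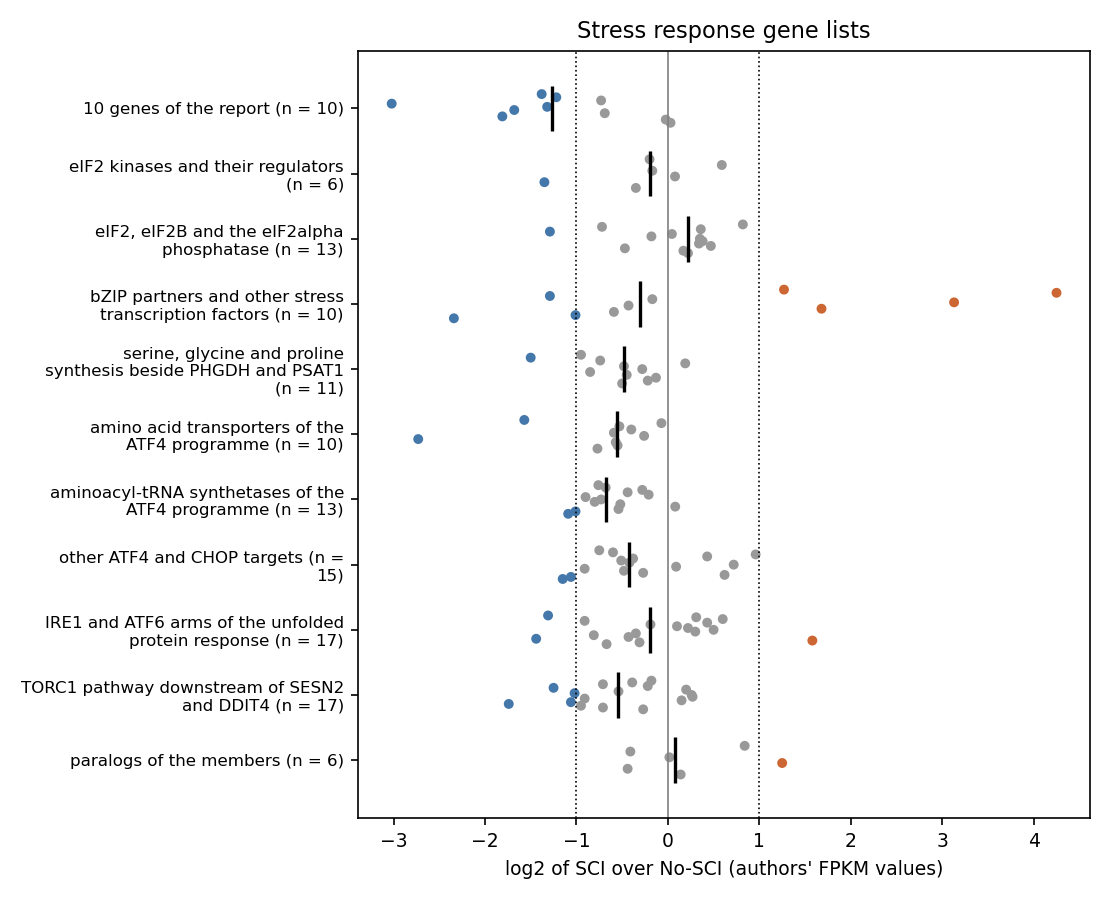
Log2 ratio of SCI over No-SCI for each listed gene of 11 lists, with a black bar at the median of a list, dotted lines at 2-fold, blue points for genes at least 2-fold lower and orange points for genes at least 2-fold higher. The 10 genes of the report have the lowest median, −1.27, and the transcription factors spread most widely, from −2.34 to 4.25.

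Marker transcripts of several cell types moved with these genes. In bulk RNA, fewer cells or processes of a type and less RNA per cell cannot be told apart. For the counts at least 2-fold lower or higher in these lists, the shares of all entries are 12.1% and 7.96%. The marker lists were chosen with earlier results of these data known, so their counts are descriptions only. The study had already reported ALDH1A2 and COL3A1 of the meningeal list as higher after SCI. It had reported SYN1, MAG, CNP and ALDH1L1 of the neuronal and glial lists as lower. Of 8 astrocyte genes 7 had a lower SCI value and 5 were at least 2-fold lower, or 4 with each scaling, and the median log2 ratio was −1.16. Their summed level of 24480 FPKM in No-SCI and 20726 FPKM in SCI was carried by APOE (log2 ratio 0.18), NDRG2 (−1.31) and GLUL (−0.059, or 0.058 after median centring), so the abundant genes of the list differed among themselves. Beside NDRG2, the astrocyte genes at least 2-fold lower were FGFR3 (−1.90), ALDH1L1 (−1.44), GJA1 (−1.42) and SLC1A2 (−1.01, or −0.89 after median centring). GFAP, AQP4, SLC1A3, ALDOC and S100B were not analysed here. Of 10 neuronal genes 9 had a lower SCI value and 5 were at least 2-fold lower, with a median of −0.97 and a sum of 644 FPKM in No-SCI and 336 FPKM in SCI. SNAP25 and NEFM, like MBP among the oligodendrocyte genes, were not analysed here. The neuronal genes ranged from −2.22 to 0.14, and the neurofilament subunits NEFL (−1.58) and NEFH (0.14) differed in direction.

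Of 11 oligodendrocyte genes 10 had a lower SCI value and 8 were at least 2-fold lower, or 7 after median centring, with a median of −1.62. Their sum of 52623 FPKM in No-SCI and 30306 FPKM in SCI is mostly MOBP, a myelin protein gene, with 44200 and 27648 FPKM (log2 ratio −0.68). All 9 skeletal muscle genes were lower, 7 of them at least 2-fold, with a median of −3.37 and a sum of 439 and 52.9 FPKM, and their median is below the ratio of CHAC1. The markers of other types went the other way or were split. All 10 meningeal fibroblast genes were at least 2-fold higher, with a median log2 ratio of 2.75 and a sum of 61.5 FPKM in No-SCI and 843 FPKM in SCI. The medians were −0.051 for 11 microglia and macrophage genes (0.067 after median centring, sum of 1130 and 1582 FPKM), 0.28 for 8 endothelial genes (59.1 and 83.9 FPKM) and −0.079 for 7 blood and neutrophil genes (0.038 after median centring, 2244 and 2365 FPKM). In each of these lists 2 genes were at least 2-fold higher. At least 2-fold lower were 3 microglia and macrophage genes (2 with each scaling), 0 endothelial genes and 0 blood and neutrophil genes. The microglia and macrophage genes went both ways, from −1.25 (CX3CR1) to 1.61 (LYZ2, at 200.5 FPKM in No-SCI and 611.1 FPKM in SCI). Whether the marker levels and the lower values of the 10 genes share a source was not tested.

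**Figure D4:**
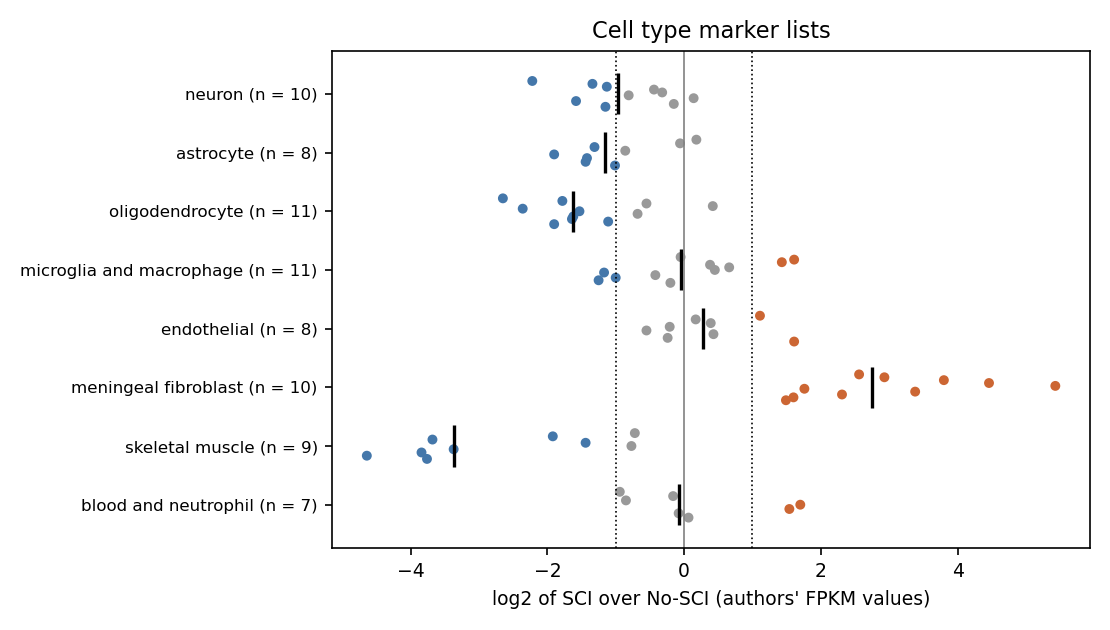
Log2 ratio of SCI over No-SCI for each listed gene of 8 cell type marker lists, with a black bar at the median of a list, dotted lines at 2-fold, blue points for genes at least 2-fold lower and orange points for genes at least 2-fold higher. Astrocyte, neuron and oligodendrocyte genes lie mostly left of 0, skeletal muscle genes all left of 0, and meningeal fibroblast genes all right of the 2-fold line.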

How the data were processed

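Stranded libraries were made from supernatant RNA after removal of rRNA. The authors cut every library to the read number of the smallest, used STAR 2.5.4b and rn6 for alignment, and estimated FPKM with Cuffdiff of cufflinks 1.3.0 and upper quartile normalization. The study's methods give 2 animals per condition, while the labels give 2 libraries for No-SCI but 1 for SCI, and which SCI libraries entered the deposited value could not be settled. The methods state a nominal read number per sample, but the reads behind each entry are not given in the sources used here, so no counting interval could be computed. The deposited table also holds the authors' p-value and q-value, fold change ratio and log2 fold change for each entry, which were not used. Columns of single samples left without a group numbered 0.

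Log2 ratios (SCI over No-SCI) were calculated from the deposited FPKM without a pseudocount, and a symbol with several entries was taken at the entry with the larger mean. The members and gene lists were chosen with earlier results of these data known. The 10 members are all named. Genes of the lists were drawn from the 3 most abundant of each list and those at least 2-fold higher or lower, and those meeting this rule but not named are covered by the counts of their list. Others (NEFH, PPP1R15A, CHAC2, SESN3, GCN1, GCN2, CEBPG, EIF4EBP1, MTOR and HSPA5) were chosen for their role after their values were seen. Gene symbols of all 10 members matched RefSeq (GRCr8), used for names and promoters only, since the values were made on rn6. The code that counts past a fold was checked on simulated data with planted changes, which says nothing on the noise of the real values. Python 3.11.15 with numpy 2.4.6, pandas 2.3.3 and matplotlib 3.10.9 was used.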

Additional observations from a re-analysis of the deposited data

How the results depend on the processing

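The median log2 ratio of the 10 genes, −1.27, was −1.20 and −1.26 with pseudocounts of 1 and 0.1, −1.15 with median centring, −1.22 with the same total, −1.17 with the same upper quartile and −1.35 with 1 subtracted from every value, and it was the same with the smaller entry of repeated symbols or a mean of at least 5 FPKM. Under these 8 alternatives 0 of the 80 values of single members changed their side of 2-fold, and 3 changed sign, all of DDIT3. The smaller entry and the mean of at least 5 FPKM could not move any member, since each is listed once and passes that mean. With a fold of 3 in place of 2, 3 of the 10 genes were lower, beside 417 of the 12771 entries lower and 405 higher. With folds of 1.5 and 1.3, 8 of the 10 genes were lower with either. Of the 12771 entries, 3361 and 4565 were then lower and 2159 and 3148 higher, so the background share grows as the fold shrinks. These changes follow from the threshold itself. Leaving out single libraries was not run, because only group values were used. No paired analysis was possible because the table gives group values and the sample titles share no replicate number between groups. The reads behind each value are not known here, which bears most on low values, such as those of TRIB3, SESN2, DDIT4 and IMPACT, all under 10 FPKM in SCI.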

Other observations

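DDIT4 is induced by glucocorticoids and by hypoxia as well as by ATF4, and 2 further lists give the levels of such genes. Of 12 glucocorticoid response genes 10 were analysed, and all 10 had a higher SCI value, 5 of them at least 2-fold, beside 7.96% of all entries. FKBP5, a co-chaperone of the glucocorticoid receptor, was at 7.42 FPKM in No-SCI and 37.0 FPKM in SCI, a log2 ratio of 2.32, while DDIT4 had a log2 ratio of −1.22. SULT1A1 (2.14), CDKN1A (1.18), ZBTB16 (1.15) and KLF9 (1.12) were the other 4, and the median of the list was 1.04.

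Of 16 hypoxia response genes 15 were analysed, with 6 higher and 9 lower values. At least 2-fold higher were 3, beside 7.96% of all entries, and at least 2-fold lower 3, beside 12.1%, or 4 and 2 after median centring. LDHA, which makes lactate, was at 841 FPKM in No-SCI and 1745 FPKM in SCI (log2 ratio 1.05), and ANKRD37 (1.52) and ADM (1.36) were also at least 2-fold higher. PFKFB3, a glycolytic regulator, went from 63.3 to 18.5 FPKM (log2 ratio −1.77), and EGLN3 (−1.47) and VEGFA (−1.06) were lower too. The median of the list was −0.25, or −0.13 after median centring. Whether these signals act on DDIT4 was not tested.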
